A study of Arabidopsis thaliana with 36 samples.

Results

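The touch genes TCH2 (AT5G37770), TCH3 (AT2G41100) and TCH4 (AT5G57560) and 5 further genes of the calmodulin-like family, CML23 (AT1G66400), CML37 (AT5G42380), CML38 (AT1G76650), CML39 (AT1G76640) and CML42 (AT4G20780), were followed in Arabidopsis leaves after an increase in light. They were taken by locus from a table of RPKM values (reads per kilobase of exon, scaled to the number of reads mapped), as known markers of touch and wounding calcium signals, and are 8 of its 37336 genes. RNA-Seq was done on the wild-type ecotypes WS and Col-0, neither carrying a mutation or transgene, before (0 min) and at 15, 30, 60, 120 and 240 min after a step in the photon flux density (PFD), which was 120 during growth and 500 μmol m–2 s–1 after the step. The 0 min leaves were taken at the growth PFD, and each of the 12 groups had 3 libraries (36 in all). Plants had been grown hydroponically under a photoperiod of 12 h and were held in a gas exchange chamber. By the methods, 3 plants stood behind each ecotype, and each gave a single leaf per time.

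Plants that are brushed, bent or wounded let calcium ions into the cytosol within seconds, and proteins with EF-hands, the loops that hold a calcium ion, pass the signal on. The TCH genes were first found as transcripts that accumulate within minutes when Arabidopsis is sprayed or touched. TCH2 (also called CML24) and TCH3 (CML12) code for EF-hand proteins related to calmodulin. TCH4 has no EF-hand and codes for a xyloglucan endotransglucosylase/hydrolase (XTH), an enzyme that cuts and rejoins the xyloglucan chains of the cell wall. The calmodulin-like (CML) proteins are a large plant family that differs from calmodulin in sequence, and CML37, CML38 and CML39 are known to respond to wounding, whereas CML42 is known from trichome branching and the response to insects.

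No library was taken at the growth PFD after 0 min. Light, time of day, the repeated removal of leaves from the same plants and the move into the chamber therefore cannot be told apart in any comparison with 0 min. Where a transcript was lower in these whole leaves, fewer cells of a type and less RNA per cell cannot be told apart either. Libraries held between 7.35 M and 41.7 M reads (M, mega) in genes, recovered from the steps of the RPKM values (median 28.6 M). Of the 36 libraries, 27 were nearest to the mean of their own group over all genes tested, and 9 were nearer to the group of another time in the same ecotype. The 9 included replicates 1, 2 and 3 of Col-0 at 60 min, each nearest to Col-0 at 30 min. Between these times 0 of all genes tested were called in Col-0. In an added fit 4 libraries were left out together, of which replicate 3 of WS at 120 min and replicate 1 of Col-0 at 60 and at 120 min were among these 9, and replicate 1 of WS at 0 min was shallow. Of markers of leaf cell types, 6 mesophyll genes (such as RBCS1A, of the small subunit of Rubisco) summed to between 7910 and 44500 RPKM. Sums were 19.8 to 56.2 RPKM for 7 guard cell genes, 6.45 to 24.7 RPKM for 5 epidermis and trichome genes and 55.4 to 238 RPKM for 5 vascular genes. The sums depend on the genes chosen, so comparing them does not test the labelled tissue, leaf.

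All 8 genes passed the filter on low values (at least 1 of the 36 readings above 7 RPKM). Only TCH2, TCH3 and CML42 did so at 0 min, so the other 5 passed through libraries of later times. Levels spanned a wide range, with highest readings of 296 RPKM for CML38, 221 RPKM for TCH3, 135 RPKM for TCH4 and 127 RPKM for TCH2, and of 24.5 to 27.1 RPKM for CML23, CML37, CML39 and CML42. RPKM is per length of exon, but each of these is a single library, so they compare the genes only roughly. The 296 RPKM of CML38 was replicate 1 of WS at 30 min, where replicates 2 and 3 had 8.95 and 28.1 RPKM.

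The genes lie on 4 chromosomes, and several lie next to a relative (TAIR10.1 coordinates). TCH2 is at chr5:14997514-14999619 on the minus strand, with the calmodulin gene CAM1 4846 bases away. TCH3 is at chr2:17137037-17139700 on the plus strand, 482 bases from the calmodulin gene CAM2, which is also known as TCH1. CML23 is at chr1:24770419-24771393 on the minus strand, 2719 bases from the calmodulin gene CAM4. CML38 (chr1:28766750-28768138) and CML39 (chr1:28765254-28765866) are neighbours on the minus strand, 883 bases apart. TCH4 (chr5:23307006-23308680, next to XTH25), CML37 (chr5:16942447-16943820) and CML42 (chr4:11133095-11134075) are on the minus strand. In their coding bases the closest pairs among TCH2 and the 5 CML genes were TCH2 with CML23 (79.1% identity over the alignment), CML38 with CML39 (74.0%) and CML37 with CML38 (62.8%), and the other pairs lay between 50.4% and 60.1%. Despite this likeness, none of the 50-base pieces of the exons of 7 of the genes occurs elsewhere in the genome, and for TCH3 9 of 2325 pieces also occur in its other neighbour, AT2G41090, so that reads of that length would rarely be shared.

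Sequences upstream of the annotated starts (5′ to 3′ on the gene's strand, read from TAIR10.1) are shown for the 2 pairs on which the results turn. In the first pair, TCH2 (chr5:14999620-14999739) and CML23 (chr1:24771394-24771513), with 120 bases each, capitals mark CGCGTT, the element that CAMTA (calmodulin-binding transcription activator) factors bind, with its reverse complement, and any other CGCG core.
TCH2: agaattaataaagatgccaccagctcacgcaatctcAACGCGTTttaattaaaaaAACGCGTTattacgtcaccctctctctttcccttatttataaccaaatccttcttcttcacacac
CML23: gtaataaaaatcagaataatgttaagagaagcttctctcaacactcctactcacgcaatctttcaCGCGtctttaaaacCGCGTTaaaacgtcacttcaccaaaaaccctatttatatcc
In the second pair, CML38 (chr1:28768139-28768388) and CML39 (chr1:28765867-28766116), with 250 bases each, capitals mark the W-box TTGACC, a site of WRKY factors, and none of the letters searched is in the CML39 stretch.
CML38: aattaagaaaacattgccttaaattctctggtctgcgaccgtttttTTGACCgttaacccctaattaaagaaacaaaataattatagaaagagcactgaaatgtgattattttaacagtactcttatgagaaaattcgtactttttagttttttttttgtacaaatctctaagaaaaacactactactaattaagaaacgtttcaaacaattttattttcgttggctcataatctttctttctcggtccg
CML39: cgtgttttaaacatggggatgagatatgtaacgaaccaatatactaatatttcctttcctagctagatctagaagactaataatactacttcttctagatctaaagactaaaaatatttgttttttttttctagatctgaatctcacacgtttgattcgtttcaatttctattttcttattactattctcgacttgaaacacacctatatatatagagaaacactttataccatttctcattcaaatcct
Over windows from 250 bases before to 50 bases after the start, on both strands, CGCGTT was present for TCH2 and CML23 and for none of the other 6 genes, against 3.4% of 27443 protein-coding genes. TCH2 held 4 matches, which form 2 palindromes AACGCGTT that match on both strands and begin at bases -84 and -65 from the start, and CML23 held 1, at base -41, with a further CGCG core at base -55. The CGCG core, contained in CGCGTT, was present for the same 2 genes, against 13.0% of all genes. A W-box (TTGACC or TTGACT) was present for TCH4, CML38 and CML42, against 32.4% of all genes, and the match of CML42 lies after the start. The G-box CACGTG (7.68% of all genes) and the DRE letters ACCGAC or GCCGAC (8.72%) were in none of the 8 windows. A match is only a match of letters, and a window without one says nothing about a factor.

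Most of the 8 transcripts increased early and transiently. Against 0 min, 5 of the 8 were higher at 15 min in WS (TCH2, TCH3, TCH4, CML23 and CML38), where 2.64% of the 13817 genes tested were higher. The same 5 were higher at 15 min in Col-0, where 2.85% of all genes were. These calls are adjusted p values under 0.05 from limma on log2(RPKM + 1), over all genes tested. At 30 min 5 of 8 were higher in WS (the same genes, background 6.36%) and 3 of 8 in Col-0 (TCH2, TCH3 and CML38, background 5.08%). At 60 min 5 were higher in WS (TCH2, TCH3, TCH4, CML38 and CML39, background 16.8%) and 3 in Col-0 (TCH3, CML38 and CML39, background 10.1%). The 8 genes were chosen with earlier results of these data known, and 5 passed the filter only through later times. Counts above the background may therefore be partly fixed by the choice of genes.

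At 120 and 240 min the counts were near or below the shares of all genes. At 120 min 2 of 8 were higher in WS (TCH3 and CML42, background 23.2%) and 2 in Col-0 (CML38 and CML39, background 20.3%), with TCH2 lower in Col-0 (background 15.7% lower). At 240 min none was higher in WS (background 14.5%), while in Col-0 CML38 was still higher (background 17.0%) and TCH2 lower (background 13.1% lower). The median log2 difference of the 8 genes was 2.89, 2.48, 2.12, 1.50 and 0.25 from 15 to 240 min in WS, and 2.53, 1.77, 1.59, 0.43 and 0.21 in Col-0, and the median of all genes lay between -0.01 and 0.10 in these comparisons. A fit to recovered read numbers (voom) called fewer, with 3, 2, 3, 1 and 0 higher in WS and 3, 2, 1, 0 and 0 higher in Col-0 from 15 to 240 min. The plot of every library shows that the early increase went with a large spread between plants, since single libraries stood far above the others at 15 to 60 min.

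**Figure D1:**
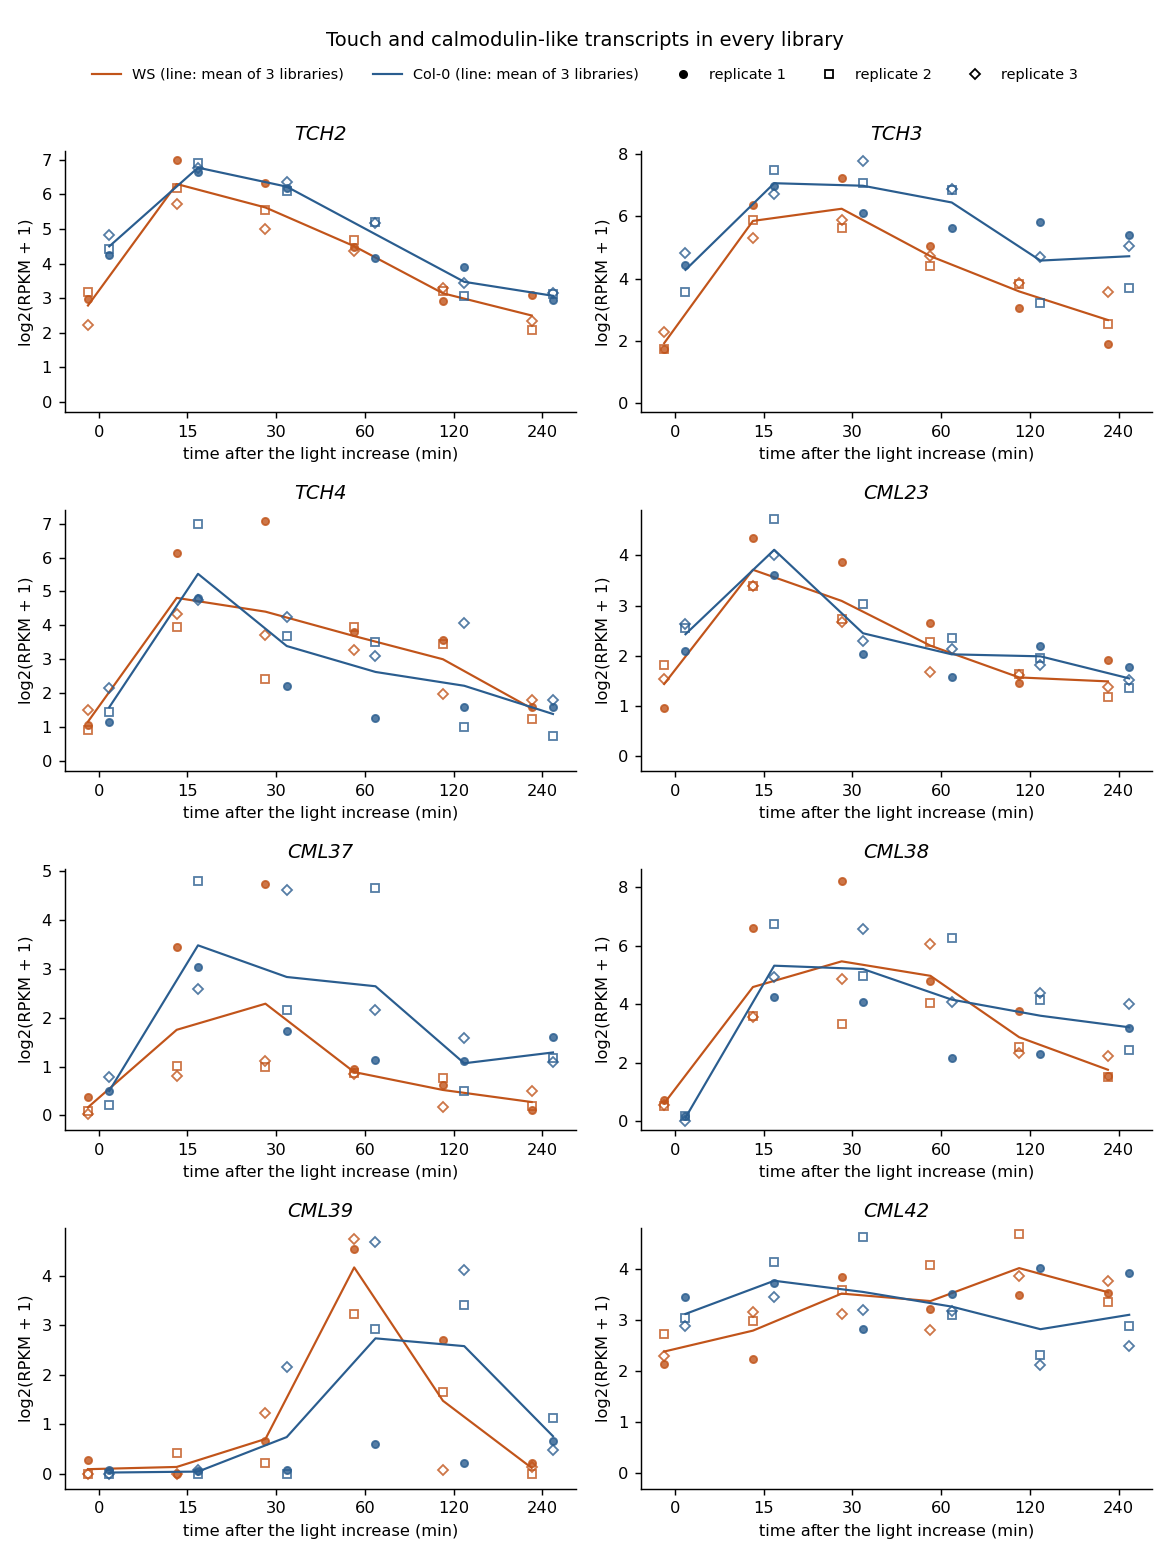
Level of each of the 8 transcripts, as log2(RPKM + 1), by time in minutes (categories, not to scale), with WS left of Col-0 at each time. Symbols are the 3 libraries of a group and lines join their means. TCH2, TCH3, TCH4, CML23, CML37 and CML38 lie above their 0 min libraries at 15 min in both ecotypes, whereas CML39 stays near 0 until 30 min in most libraries.

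TCH2, a calmodulin-like protein with a role in flowering and nitric oxide signalling, rose in every plant of both ecotypes. At 15 min it reached 127, 71.0 and 51.9 RPKM in the 3 WS libraries, against 6.85, 8.06 and 3.63 RPKM at 0 min. In Col-0 it reached 99.6, 118 and 108 RPKM at 15 min, against 18.1, 20.4 and 27.1 RPKM at 0 min. No library at 15 min overlapped those at 0 min, and all 6 plants had their highest reading at 15 min. Mean RPKM was 13.5-fold higher at 15 min in WS (log2 difference 3.51 ± 0.33 (SE), adjusted p = 6.1e-07) and 4.96-fold higher in Col-0 (2.27 ± 0.33, adjusted p = 1.4e-04).

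The mean of TCH2 was then lower at each later time. In WS it was 52.0 ± 25.1 RPKM at 30 min, 21.8 ± 2.66 RPKM at 60 min, 7.87 ± 1.17 RPKM at 120 min and 4.93 ± 2.31 RPKM at 240 min (mean ± SD, n = 3), and it was still higher than at 0 min at 30 and 60 min (log2 differences 2.83 and 1.71). In Col-0 it was 73.8 ± 6.94, 29.2 ± 10.6, 10.4 ± 3.29 and 7.4 ± 0.586 RPKM at these times. The readings at 240 min in Col-0 (6.74, 7.62 and 7.85 RPKM) all lay below the lowest at 0 min, a mean 66.2% lower (log2 difference -1.43 ± 0.33, adjusted p = 0.0018). At 120 min the mean in Col-0 was 52.4% lower (adjusted p = 0.018). The 6 mesophyll markers summed to between 12800 and 27100 RPKM at 240 min in Col-0, against 30400 to 44500 RPKM at 0 min, with 1 of 6 lower by the test (2 of 6 with the replicate block), and their part in the fall of TCH2 was not tested.

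Between neighbouring times TCH2 passed the test in WS at 60 against 30 min (log2 difference -1.12, adjusted p = 0.048), where 1.93% of all genes were lower. It passed again in WS at 120 against 60 min (-1.36, adjusted p = 0.0045, background 7.11%), and in Col-0 at 120 against 60 min (-1.37, adjusted p = 0.0051, background 6.55%). The calls at 15, 30 and 60 min in WS and at 15, 30 and 240 min in Col-0 held in all 9 fits that left out a plant or a library. The call at 120 min in Col-0 was lost without plant 2 or 3, the 120 min library 2 or 3 or the 0 min library 3 (adjusted p up to 0.19). The step at 60 min in WS was lost in 8 of 9 (all but the one without the 30 min library 3, adjusted p up to 0.28) and with a pseudocount of 0.1 RPKM, either other filter, the median of ratios, each ecotype alone or no trend, the step at 120 min in WS without plant 2 (0.068) and the step in Col-0 without plant 2 or 3 (up to 0.22). The overlapping gene on the other strand, AT5G37760, did not exceed 0.12 RPKM in any library.

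CML23, the gene closest to TCH2 in sequence, was also highest at 15 min, at lower levels. At 15 min it was 19.5, 9.46 and 9.54 RPKM in WS, against 0.95, 2.52 and 1.9 RPKM at 0 min. In Col-0 it was 11.2, 25.3 and 15.1 RPKM at 15 min, against 3.28, 4.86 and 5.23 RPKM at 0 min. All 6 plants had their highest reading at 15 min and the groups did not overlap. The increase was 7.16-fold in WS (log2 difference 2.27 ± 0.35, adjusted p = 2.5e-04) and 3.86-fold in Col-0 (1.68 ± 0.35, adjusted p = 0.004).

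At 30 min CML23 remained higher in WS (13.5, 5.68 and 5.4 RPKM, log2 difference 1.65, adjusted p = 0.0025), while the 30 min readings of Col-0 (3.07, 7.17 and 3.89 RPKM) overlapped those of 0 min. From 60 min on no comparison with 0 min passed the test in either ecotype. At 240 min the 3 Col-0 readings (2.42, 1.57 and 1.85 RPKM) all lay below those of 0 min, but the test was not passed (log2 difference -0.88, adjusted p = 0.055). With the plant as a replicate block it was (adjusted p = 0.034) and with a pseudocount of 0.1 RPKM, each ecotype alone or without the 4 doubted libraries, as was the Col-0 step from 15 to 30 min (a difference of -1.66, with an adjusted p of 0.035 with the block and 0.12 without), which also passed without the 30 min library 2. The 15 min call in WS held in all 9 leave-out fits, the one in Col-0 was lost without plant 2 or its 15 min library (adjusted p up to 0.12), and the 30 min call in WS was lost without plant 1 (0.17) and with voom.

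TCH3, an EF-hand protein with more calcium-binding loops than calmodulin, rose as early but lasted longer. At 15 min it was 81.1, 58.7 and 38.5 RPKM in WS, against 2.34, 2.37 and 3.87 RPKM at 0 min. In Col-0 it was 125, 178 and 105 RPKM at 15 min, against 20.8, 10.97 and 27.0 RPKM at 0 min. These groups did not overlap in either ecotype. The change at 15 min was 20.8-fold in WS (log2 difference 3.93 ± 0.57, adjusted p = 1.2e-04) and 6.95-fold in Col-0 (2.79 ± 0.57, adjusted p = 0.0036).

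At 30 min TCH3 was 149.7, 48.1 and 58.0 RPKM in WS (log2 difference 4.32) and 67.2, 133 and 221 RPKM in Col-0 (2.71). Of the 6 plants, 3 had their highest reading at 15 min and 3 at 30 min. At 60 min it was still higher than at 0 min, with 25.8 ± 5.88 RPKM in WS (2.80, adjusted p = 5.3e-04) and 92.7 ± 38.3 RPKM in Col-0 (2.17, adjusted p = 0.0094). At 120 min it was 11.4 ± 3.47 RPKM in WS, higher than at 0 min (1.66, adjusted p = 0.021), and 29.5 ± 23.6 RPKM in Col-0, where readings of 54.9, 8.34 and 25.2 RPKM overlapped 0 min. The fall from 60 to 120 min passed the test in Col-0 (-1.87, adjusted p = 0.024).

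In WS the calls for TCH3 at 15, 30 and 60 min held in all 9 leave-out fits. In Col-0 the 15 min call was lost without plant 2 (adjusted p 0.091), the 30 min call without plant 3 (0.085), the 60 min call without plant 2 or 3 or the 0 or 60 min library 2 (up to 0.14), and the step to 120 min without plant 2 or 3 or any of their 60 and 120 min libraries (up to 0.41) and with each ecotype fitted alone. The 120 min call in WS was lost without any of the 3 plants, the 0 min library 1 or 2 or the 120 min library 2 or 3 (up to 0.18), with voom, and without the 4 doubted libraries. Of the 2 genes that overlap TCH3 on the other strand, AT2G41105 stayed at or below 3.23 RPKM and AT2G09220 was listed at 0 in every library.

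TCH4, the cell wall enzyme, rose steeply but unevenly between plants. At 15 min it was 69.4, 14.5 and 19.2 RPKM in WS, against 1.08, 0.89 and 1.84 RPKM at 0 min. In Col-0 it was 26.9, 127 and 26.0 RPKM at 15 min, against 1.24, 1.73 and 3.43 RPKM at 0 min. Every 15 min library lay above every 0 min library, and 1 library of each ecotype was several times higher than the others. The log2 difference was 3.65 ± 0.88 in WS (adjusted p = 0.017) and 3.93 ± 0.88 in Col-0 (adjusted p = 0.0089).

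In WS TCH4 was 135, 4.32 and 12.2 RPKM at 30 min, where the reading of plant 1 was again far above the others, and 13.1, 14.5 and 8.74 RPKM at 60 min. Both times passed the test (log2 differences 3.24, adjusted p = 0.018, and 2.52, adjusted p = 0.034). In Col-0 the readings were 3.67, 11.9 and 18.2 RPKM at 30 min, all above those of 0 min, but the test was not passed (log2 difference 1.80, interval -0.01 to 3.62, adjusted p = 0.27). At 240 min the level was 1.96 ± 0.563 RPKM in WS and 1.74 ± 0.946 RPKM in Col-0, with no call. Voom made none of the 4 calls for TCH4. The 15 min call in Col-0 was lost without plant 1 or 2, the 0 min library 1 or the 15 min library 2 (adjusted p up to 0.26), and in WS without any plant, the 0 min library 1 or 2 or the 15 min library 1 (up to 0.26). The 30 min call in WS was lost without plant 1 or 3, the 0 min library 1 or 2 or the 30 min library 1 (up to 0.54), and the 60 min call in all 9 leave-out fits (up to 0.16), without the 4 doubted libraries and with no filter.

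CML38, known from hypoxia and wounding, had the largest log2 difference of the 8 genes and was barely detected at 0 min. At 0 min the WS libraries held 5, 14 and 16 reads (0.67, 0.44 and 0.48 RPKM) and the Col-0 libraries 4, 3 and 0 reads (0.14, 0.13 and 0 RPKM). The count of 0 allows a level of up to 0.12 RPKM (3 reads, counting error only). At 15 min CML38 was 96.5, 11 and 10.8 RPKM in WS and 18.1, 107 and 29.6 RPKM in Col-0, and the lowest number of reads in any of these libraries was 366. With so few reads at 0 min a fold change depends on the pseudocount and is not given.

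The log2(RPKM + 1) difference of CML38 at 15 min was 3.98 ± 1.01 in WS (adjusted p = 0.025) and 5.19 ± 1.01 in Col-0 (adjusted p = 0.0024). At 30 min the readings were 296, 8.95 and 28.1 RPKM in WS and 15.8, 30.4 and 93.7 RPKM in Col-0, and at 60 min 26.6, 15.6 and 66.1 RPKM in WS and 3.45, 75.4 and 15.7 RPKM in Col-0. All of these lay above the 0 min libraries, but plants of a group differed widely, and in WS plant 1 was far above the others at 15 and 30 min. In Col-0 CML38 was still called at 120 min (3.89, 16.5 and 20.0 RPKM, log2 difference 3.48) and at 240 min (8.2, 4.35 and 15.1 RPKM, 3.09, adjusted p = 0.022). In WS it was 12.7, 4.75 and 3.99 RPKM at 120 min (adjusted p = 0.075, or 0.036 with the plant as a replicate block, and passed with a pseudocount of 0.1 RPKM) and 1.92, 1.84 and 3.67 RPKM at 240 min (adjusted p = 0.46), again above the 0 min readings in each library.

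Voom made none of the calls for CML38 (adjusted p between 0.15 and 0.90). Of the calls in Col-0, that at 15 min was lost without plant 2 (adjusted p 0.09), at 30 min without plant 3 (0.11), at 60 min without plant 2 or 3 or the 60 min library 2 (up to 0.18), at 120 min without plant 2 or 3 (up to 0.11), and at 240 min without plant 1 or 3 or their 0 or 240 min libraries (up to 0.16). In WS the call at 15 min was lost in 7 of 9 leave-out fits, all but those without the 15 min library 2 or 3 (up to 0.38), and with no filter or each ecotype alone, at 30 min without plant 1 (0.11) and at 60 min without plant 3 (0.054). The direction was higher in every one of these fits.

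CML39, the neighbour of CML38 and the relative closest to it in sequence, came later. At 0 min it had 1, 0 and 0 reads in the WS libraries and 1, 0 and 0 in the Col-0 libraries, and at 15 min 0, 7 and 0 reads in WS and 1, 0 and 1 in Col-0. It was at 0 reads in 9 of the 36 libraries, which allows up to 0.346 RPKM in the shallowest of them. At 30 min, when CML38 was high, CML39 was 0.59, 0.16 and 1.35 RPKM in WS and 0.06, 0 and 3.43 RPKM in Col-0. It was thus at or near the detection limit at both early times in most libraries.

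At 60 min CML39 reached 22.1, 8.41 and 25.6 RPKM in WS (290, 149 and 384 reads) and 0.53, 6.56 and 24.5 RPKM in Col-0 (13, 112 and 455 reads). In WS all 3 libraries were clearly above 0 min, and in Col-0 plant 1 stayed near 0. Both ecotypes passed the test (log2 difference 4.07 ± 0.81, adjusted p = 4.3e-04, in WS and 2.71 ± 0.81, adjusted p = 0.021, in Col-0). In WS the step at 60 against 30 min was 3.46 (adjusted p = 0.014, background 2.97% higher) and the step back at 120 against 60 min was -2.69 (adjusted p = 0.02). In Col-0 it was still called at 120 min (0.16, 9.57 and 16.4 RPKM, 2.55, adjusted p = 0.015). At 240 min it was 0.17, 0 and 0.1 RPKM in WS and 0.58, 1.2 and 0.4 RPKM in Col-0.

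The 60 min call of CML39 in WS held in all 9 leave-out fits and under voom. The calls in Col-0 did not: that at 60 min was lost in 7 of 9, all but those without plant 1 or its 60 min library (adjusted p up to 0.2), that at 120 min without plant 2 or 3 or their 120 min libraries (up to 0.16), and both with voom or with each ecotype fitted alone. Both steps in WS were lost in 6 of 9, including all 3 plants (adjusted p up to 0.21 for the first and 0.31 for the second), and with a pseudocount of 0.1 RPKM, the first also with voom. Without the 4 doubted libraries, which include the low Col-0 60 and 120 min readings of plant 1, CML39 was also called at 120 min in WS, at the step to 60 min in Col-0 and at the step from 120 to 240 min in both ecotypes. Of the 6 plants, 4 had their highest CML39 reading at 60 min, 1 at 120 min and 1 at 240 min, and for CML38 2 each had it at 15, 30 and 60 min.

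**Figure D2:**
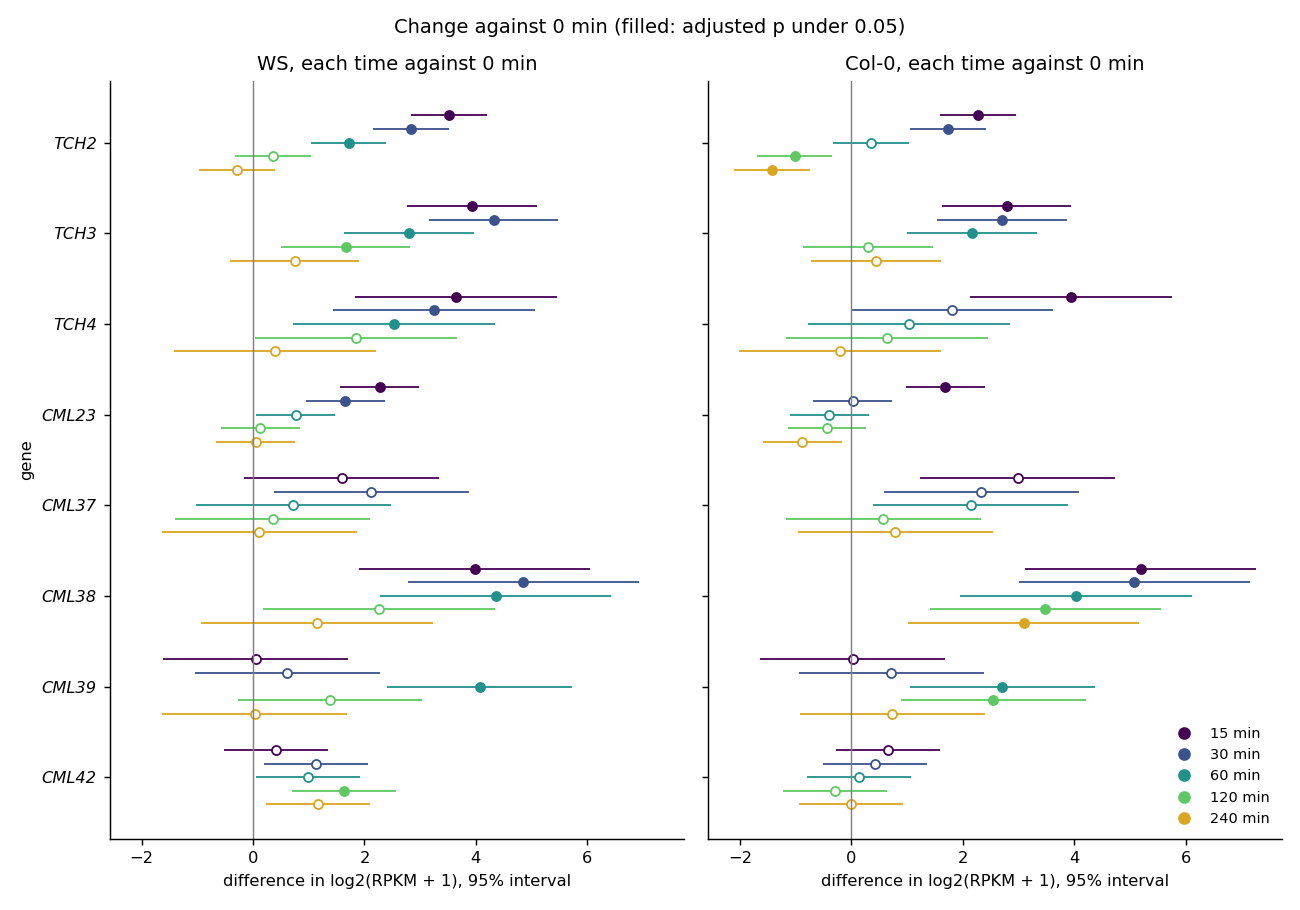
Difference in log2(RPKM + 1) from 0 min for the 8 genes (rows) at 15 to 240 min (colours), for WS on the left and Col-0 on the right. Points are limma estimates, bars 95% intervals, and filled points passed the test. CML39 is the only gene that is near 0 at 15 and 30 min and filled at 60 min in both panels.

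CML37, the gene most like CML38 after CML39, is a known positive regulator in the defence against insects. It did not pass the test in any of the 10 comparisons with 0 min. At 15 and 30 min CML37 was much higher in 1 plant of each ecotype than in the others. At 15 min it was 9.89, 1.02 and 0.74 RPKM in WS, against 0.29, 0.07 and 0.02 RPKM at 0 min. In Col-0 it was 7.28, 27.1 and 5.02 RPKM at 15 min, against 0.42, 0.16 and 0.72 RPKM at 0 min. The 0 min libraries held only 3, 3 and 1 reads of CML37 in WS and 16, 5 and 25 in Col-0. Every 15 min library was above every 0 min library in both ecotypes. At 30 min it was 25.8, 1.00 and 1.17 RPKM in WS and 2.31, 3.47 and 23.6 RPKM in Col-0, and at 60 min 0.92, 0.83 and 0.8 RPKM in WS and 1.18, 24.2 and 3.46 RPKM in Col-0.

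The plant with the highest CML37 reading thus differed between times in Col-0 (2, 3 and 2 at 15, 30 and 60 min) and was plant 1 at both 15 and 30 min in WS. The largest log2 difference was 2.98 ± 0.85 at 15 min in Col-0 (interval 1.23 to 4.73, adjusted p = 0.052), and it passed with the plant as a replicate block (adjusted p = 0.038). It also passed with a pseudocount of 0.1 RPKM, without the 15 min library 3 (adjusted p = 0.042) and without the 4 doubted libraries. The 60 min difference in Col-0 (2.15, adjusted p = 0.084) passed without the 60 min library 1 (2.91, adjusted p = 0.024) and without the 4 doubted libraries. With a pseudocount of 0.1 RPKM CML37 passed at 15, 30 and 60 min in Col-0 and at 30 min in WS. A p above the threshold does not show that CML37 was unchanged.

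CML42 was well detected from the start. At 0 min it was 3.37, 5.62 and 3.87 RPKM in WS and 9.82, 7.14 and 6.37 RPKM in Col-0. In Col-0 no later time passed the test, with means between 7.51 and 12.8 RPKM and log2 differences between -0.30 and 0.65. In WS every reading at 30 and 60 min lay above those of 0 min, without a call by limma (log2 differences 1.13 and 0.99, adjusted p = 0.14 and 0.11). In WS CML42 was 10.2, 24.5 and 13.6 RPKM at 120 min, all above 0 min and 3.75-fold higher in the mean (log2 difference 1.63 ± 0.46, adjusted p = 0.0057), a call that was lost without plant 2 or its 120 min library (adjusted p up to 0.066). At that time all 6 mesophyll markers were lower in WS (summed level 9310 to 29500 RPKM, against 33900 to 43700 RPKM at 0 min, with no marker at 0 throughout), and of 5 vascular markers 2 were higher and 1 lower (121 to 185 RPKM, against 76.8 to 161 RPKM), while the 4 tested guard cell markers had no call. Their part in the CML42 result was not tested. At 240 min the WS readings were 10.4, 9.14 and 12.5 RPKM (1.16, adjusted p = 0.063, or 0.042 with the plant as a replicate block), and it passed with TPM or separate fits per ecotype. The difference in response between the ecotypes at 120 min (1.93, interval 0.61 to 3.25) did not pass over all genes (adjusted p = 0.4). The level at 120 min, 10.2, 24.5 and 13.6 RPKM in WS against 15.2, 3.97 and 3.33 RPKM in Col-0, was not called either (adjusted p = 0.14), but it was without Col-0 plant 1, whose reading was the highest (adjusted p = 0.0074).

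The ecotypes differed in the measured level of TCH2 and TCH3 before the light was raised. Reads of both ecotypes were mapped to TAIR10, the Col-0 genome. The part of poorer mapping of WS reads in a lower WS level was not tested. The WS mean of TCH2 was 0.28 of the Col-0 mean at 0 min and 0.77 of it at 15 min. For TCH3 these values were 0.15 and 0.44. At 0 min TCH2 was 6.85, 8.06 and 3.63 RPKM in WS, against 18.1, 20.4 and 27.1 RPKM in Col-0, a mean 71.7% lower in WS (log2 difference -1.71 ± 0.33, adjusted p = 9.8e-04). TCH3 was 2.34, 2.37 and 3.87 RPKM in WS, against 20.8, 10.97 and 27.0 RPKM in Col-0, 85.4% lower (-2.35 ± 0.57, adjusted p = 0.0083). The groups did not overlap for either gene. These were 2 of the 8 genes, where 3.96% of all genes were lower in WS. CML23 was also lower in each WS library (0.95, 2.52 and 1.9 RPKM, against 3.28, 4.86 and 5.23 RPKM in Col-0), without passing the test (-0.99, adjusted p = 0.09).

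After the light increase TCH2 came closer to the level of Col-0, and the WS readings at 15 min (127, 71.0 and 51.9 RPKM) overlapped those of Col-0 (99.6, 118 and 108 RPKM). At 15 to 240 min the difference for TCH2 lay between -0.60 and -0.33 and passed at none of these times. TCH3 remained lower in WS at all times in the mean, with a call at 60 min (31.8, 20.1 and 25.5 RPKM in WS, against 48.5, 114 and 116 RPKM in Col-0, log2 difference -1.73, adjusted p = 0.048, background 6.31%) and at 240 min (2.74, 4.81 and 10.8 RPKM in WS, against 40.9, 12.0 and 32.4 RPKM in Col-0, -2.05, adjusted p = 0.031, background 2.64%). The TCH2 call at 0 min held in all 12 leave-out fits. That of TCH3 at 0 min was lost without Col-0 plant 3, its 0 min library or WS plant 2 (adjusted p up to 0.084) and with voom. Those at 60 and 240 min were lost in 10 and 8 of 12 (up to 0.23 and 0.2), among them the fits without plant 2 or 3 of Col-0 or any WS plant at 60 min and without plant 1 or 3 of Col-0 or plant 1 or 2 of WS at 240 min, and the first also with voom, TPM, the median of ratios, a pseudocount of 0.1 RPKM or no filter. CML39 was not called between the ecotypes, but it was without Col-0 plant 3 at 60 min (adjusted p = 0.049) and without Col-0 plant 1 at 120 min (0.032).

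A lower start and a like level later do not by themselves show a larger response, so the difference in response was tested. It passed for none of the 8 genes at any time with limma, where 0.0145%, 0.00724%, 0.232%, 0.13% and 0.0941% of all genes passed at 15, 30, 60, 120 and 240 min. With voom it passed for none of the 8 either. At an unadjusted p under 0.05 the counts were 1, 2, 2, 2 and 1 of 8, which were TCH2 at all 5 times, CML23 at 30 and 60 min and CML42 at 120 min. Over all genes tested 0.796%, 1.86%, 7.15%, 6.56% and 4.76% had an unadjusted p under 0.05 at these times. For TCH2 the response in WS minus that in Col-0 was 1.24 at 15 min (interval 0.27 to 2.20) and 1.38 at 120 min (interval 0.41 to 2.34, adjusted p = 0.42). All 5 of these differences share the 0 min libraries of both ecotypes. For CML38 the interval at 15 min was -4.16 to 1.72, so that differences of several log2 units lay within it.

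**Figure D3:**
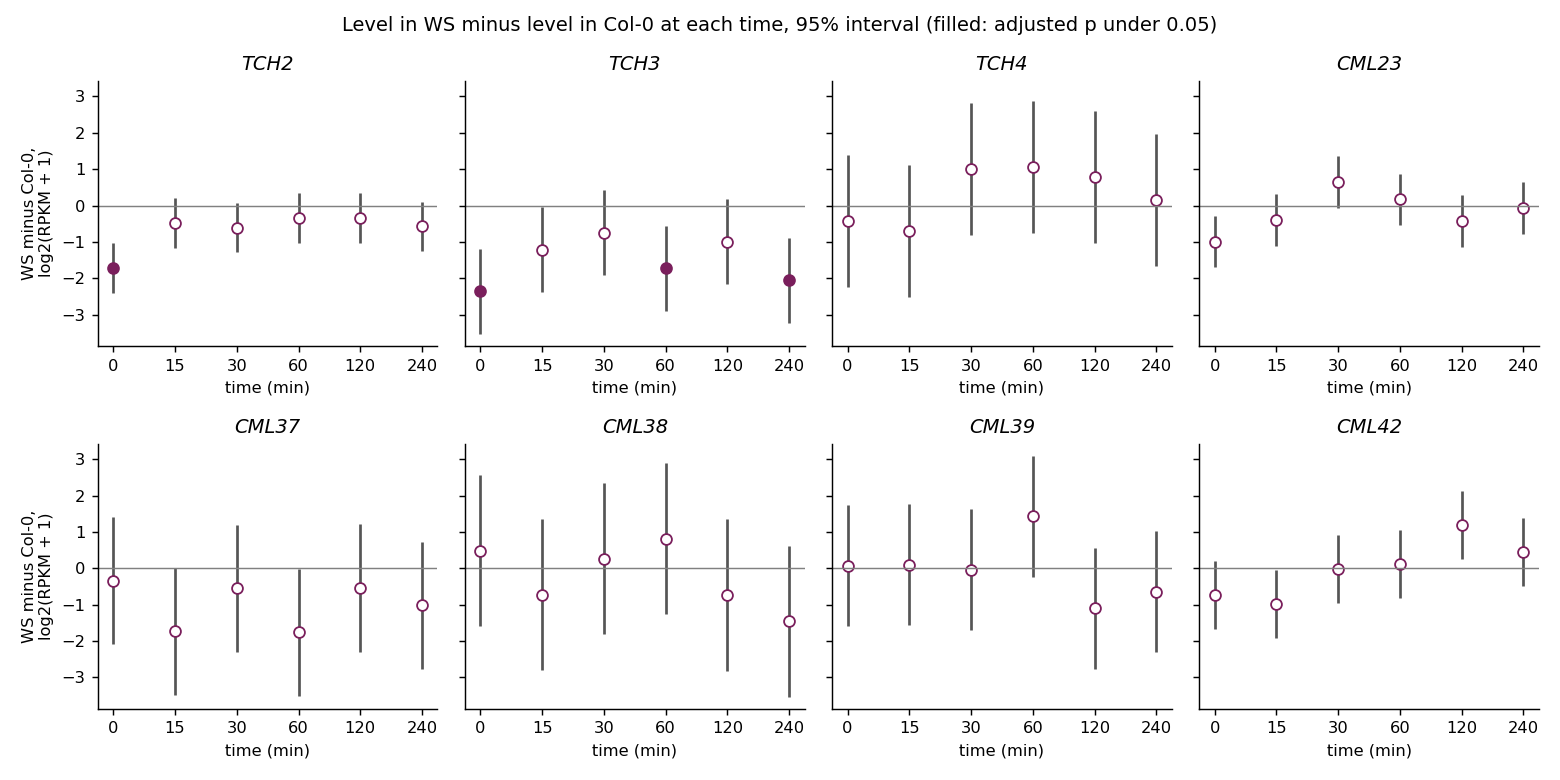
Level in WS minus level in Col-0 for each gene at each time (minutes), in log2(RPKM + 1), with 95% intervals from limma and filled points where the test was passed. TCH2 is filled at 0 min and TCH3 at 0, 60 and 240 min, all below the zero line.

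The spread between plants was shared by several of the genes. At 15 min in Col-0 replicate 2 held the highest reading for 7 of the 8 genes, and at 30 min in WS replicate 1 did for 7 of 8 (6 of 8 at 15 min). Across the 36 libraries, after subtraction of group means of log2(RPKM + 1), Pearson's r was 0.86 between CML37 and CML38, 0.83 between TCH4 and CML37 and 0.81 between TCH4 and CML38, and -0.51 between CML39 and CML42. Genes of a library share its leaf, its handling and its depth, and these are descriptions with no test. A leaf that was high in TCH4 was thus generally high in CML37 and CML38 as well.

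Over the 12 group means the courses most alike were those of TCH3 and CML37 (Pearson's r 0.94, Spearman's rho 0.97), TCH2 and CML23 (0.91 and 0.96), TCH2 and TCH3 (0.89 and 0.90) and TCH4 and CML23 (0.88 and 0.89). CML39 stood apart, with r between -0.26 and 0.35 to the 7 others, and CML42 had r of 0.41 at most. For TCH2 the 3 most similar of the other 13809 genes were AT1G74450, SRC2 and CPK32, a calcium-dependent protein kinase (r 0.99, 0.99 and 0.98). For TCH3 they were AT5G19240, SYP121, a syntaxin of the plasma membrane, and AT3G01830, an EF-hand gene (0.98, 0.97 and 0.97). For TCH4 they were AT4G29780, the arabinogalactan protein gene AGP1 and the ubiquitin ligase gene CMPG1 (0.97, 0.96 and 0.95).

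For CML23 the most similar were AT4G14350, CYP707A3, of an enzyme that degrades abscisic acid, and AT2G09225 (r 0.96, 0.96 and 0.95). For CML37 they were again AT3G01830, with AT2G35290 and VPS60.1 (0.98, 0.97 and 0.97), and for CML38 UCP5, a mitochondrial carrier gene, the transcription factor gene WRKY40 and the RING ubiquitin ligase gene RDUF2 (0.97 each). For CML39 they were AT4G34920, RCI2B, of a small membrane protein, and AT1G32910 (0.97 each). CML42 had no gene above 0.9, and EML2 was closest (0.82). The groups of an ecotype share their plants, so these values carry no p.

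The genes next to the members did not all follow them. CAM1, a calmodulin gene beside TCH2, was 92.1, 113 and 128 RPKM at 240 min in WS, against 14.2, 16.9 and 15.4 RPKM at 0 min (log2 difference 2.75, adjusted p = 2.1e-07), and 119, 121 and 76.0 RPKM in Col-0, against 13.4, 14.7 and 11.5 RPKM (2.88, adjusted p = 1.6e-07). At 15 min, when TCH2 was highest, CAM1 was 18.7 ± 1.4 RPKM in WS (adjusted p = 1.00) and 17.6 ± 8.4 RPKM in Col-0 (adjusted p = 0.97). CAM4, beside CML23, was likewise highest late, with 101 ± 7.04 RPKM at 240 min in WS, against 41.9 ± 2.29 RPKM at 0 min (1.25), and 90.2 ± 14.0 RPKM in Col-0, against 26.1 ± 4.82 RPKM (1.75). Both CAM1 and CAM4 were already called at 60 min. The log2 differences were then 1.01 in WS and 0.87 in Col-0 for CAM1, and 0.76 and 0.97 for CAM4. CAM2, the touch gene TCH1 beside TCH3, was nearer to its neighbour in time, with 52.3 ± 24.2 RPKM at 30 min in WS, against 11.6 ± 2.23 RPKM at 0 min (2.00, adjusted p = 0.0017), and 63.1 ± 21.0 RPKM in Col-0, against 18.9 ± 5.9 RPKM (1.69, adjusted p = 0.0085). At 15 min the CAM2 differences were 1.41 and 1.38 without a call (adjusted p = 0.054 in WS and 0.056 in Col-0). They were largest at 60 min (2.02, adjusted p = 4.1e-04, in WS and 1.91, adjusted p = 0.0017, in Col-0), later than the highest readings of TCH3. In WS CAM2 was still called at 120 min (1.41, adjusted p = 0.0064). At 240 min CAM2 was back to 9.9 ± 1.33 RPKM in WS and 14.7 ± 6.69 RPKM in Col-0.

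**Figure D4:**
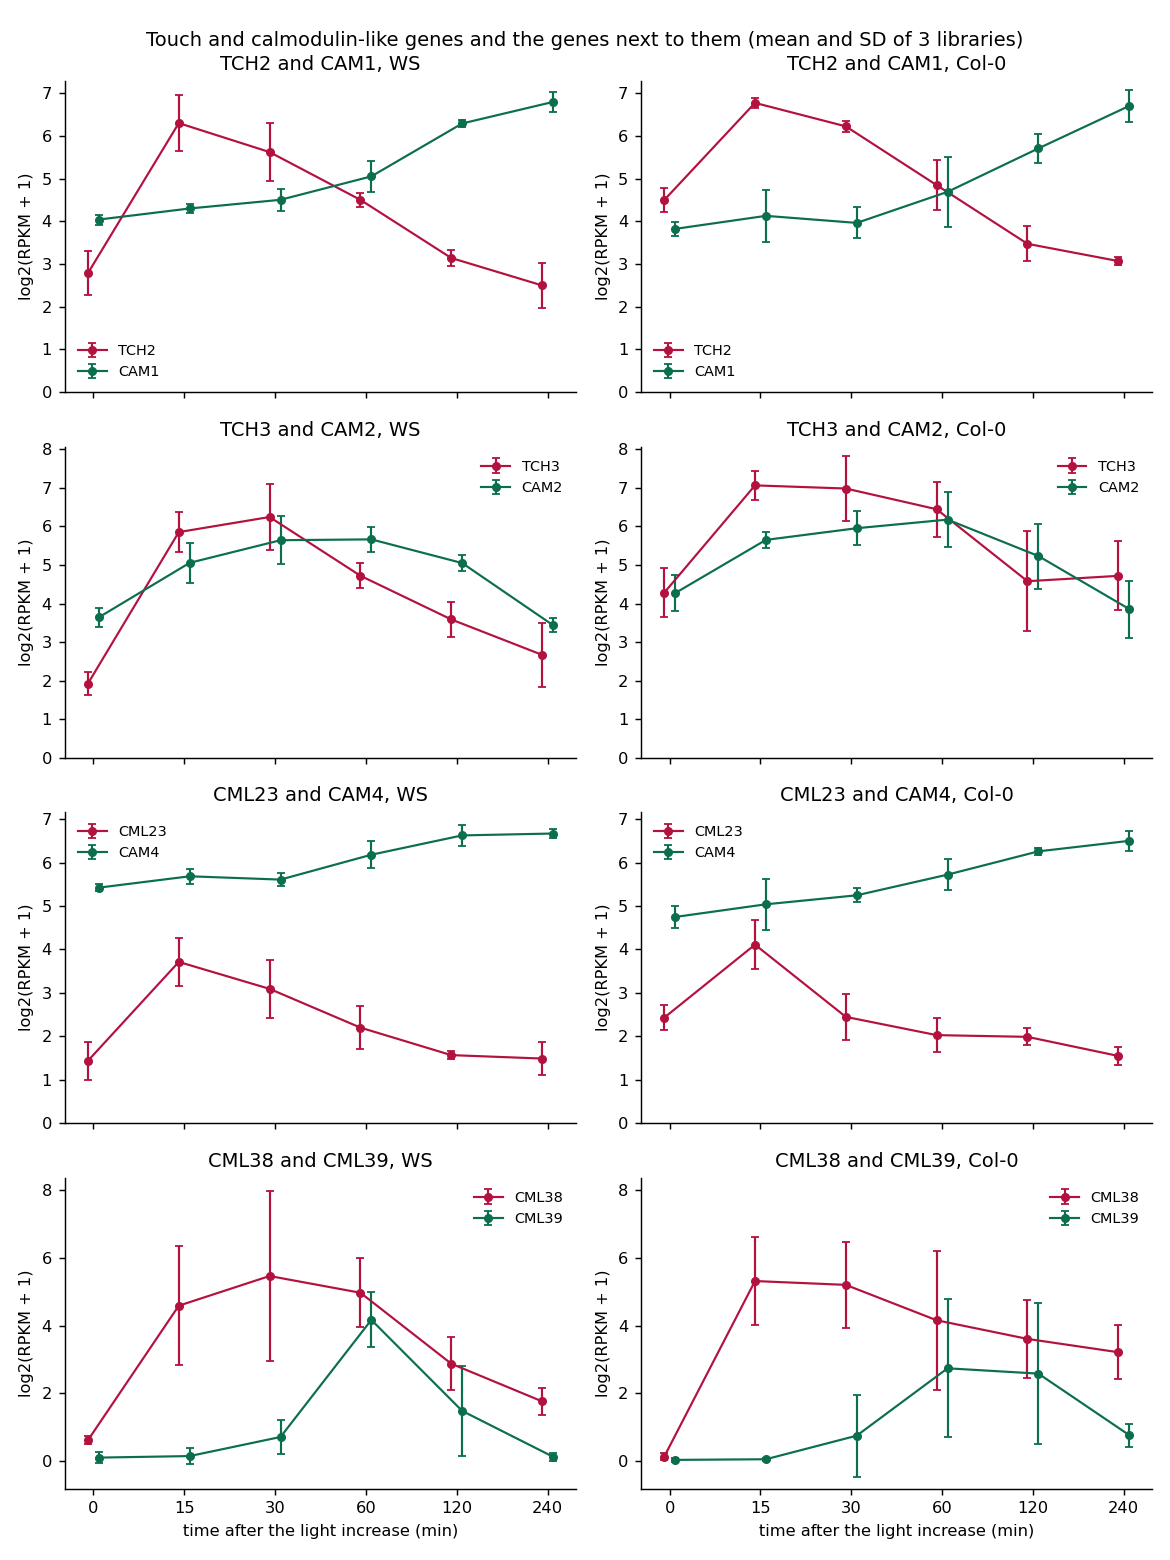
Level in log2(RPKM + 1), as mean and SD of 3 libraries, of 4 pairs of neighbouring genes (rows) by time in minutes (categories), for WS on the left and Col-0 on the right. TCH2 and CML23 are highest at 15 min while CAM1 and CAM4 are highest at 240 min, and CML39 follows CML38 with its highest mean at 60 min.

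Other genes of the calcium pathway are given by their counts, as genes higher and lower than at 0 min from 15 to 240 min. Over all genes tested 2.64, 6.36, 16.8, 23.2 and 14.5% were higher and 0.0796, 2.38, 10, 17.3 and 10.1% lower in WS at these times, and 2.85, 5.08, 10.1, 20.3 and 17.0% were higher and 0.246, 1.77, 6.44, 15.7 and 13.1% lower in Col-0. Of the 7 calmodulin genes 1, 2, 4, 4 and 3 were higher in WS and 1, 2, 4, 4 and 3 in Col-0, and none was lower. With the plant as a replicate block 2 were higher at 15 min in both ecotypes. CAM3 was among them (1.88 at 60 min in WS). Of 43 further CML genes 18 were tested, and 3, 6, 4, 5 and 5 were higher in WS and 4, 5, 5, 2 and 5 in Col-0, with at most 2 lower at any time. Among these the EF-hand gene AT3G10300 was higher at 60 min in WS (3.31) and AT5G04170 at 120 min (1.77), whereas CML9 was lower at 120 min in Col-0 (-2.29). Most of the 18 had no call at any single time.

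Of 32 other XTH genes, relatives of TCH4, 14 were tested. From 15 to 240 min 0, 2, 2, 0 and 1 were higher and 0, 0, 3, 3 and 1 lower in WS, and 0, 2, 1, 0 and 0 were higher and 0, 0, 3, 6 and 5 lower in Col-0. With the replicate block 1 was higher at 15 min in both ecotypes and at 120 min in WS, and 2 were higher at 60 min in Col-0, against 1 without it. XTH7 was lower at 120 min in WS (-2.69), and XTH27 and XTH6 were lower at 240 min in Col-0 (-1.77 and -3.50). The 6 CAMTA genes had 0, 1, 1, 0 and 0 higher and 0, 0, 1, 2 and 2 lower in WS, and 0, 1, 1, 1 and 0 higher and 0, 0, 0, 0 and 1 lower in Col-0, with CAMTA1 lower at 120 min in WS (-1.16). Of 21 calcium channel and pump genes 17 were tested, and 3, 5, 5, 6 and 1 were higher in WS and 2, 4, 3, 3 and 1 in Col-0, with 0, 0, 1, 5 and 0 lower in WS and 0, 0, 0, 4 and 1 lower in Col-0. They included ACA8, a calcium pump of the plasma membrane (3.98 at 240 min in WS), and AT1G11960 (3.40 at 30 min in WS), while the pump gene ACA4 was lower at 120 min in WS (-2.49). With the replicate block 1 CAMTA gene was lower at 120 min and 1 CML gene at 60 min in Col-0, and for the channels and pumps 1 was lower at 60 min in Col-0 and at 240 min in WS, and 2 were higher and 2 lower at 240 min in Col-0.

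Outside the 8, 18 further rapid wound and touch response genes were tested, of which 11, 14, 9, 4 and 0 were higher in WS and 13, 13, 7, 2 and 2 in Col-0 from 15 to 240 min, and none was lower. Their median log2 difference was 3.06, 3.32, 1.56, 1.24 and 0.90 in WS, and 2.69, 2.60, 1.70, 0.79 and 1.18 in Col-0. The transcription factor genes WRKY18 (6.10), MYB44 (5.08) and ZAT10 (5.96) were higher at 60 min in WS. Of 14 tested jasmonate genes, a hormone pathway of wounded leaves, 6, 13, 14, 13 and 2 were higher in WS and 5, 14, 14, 12 and 6 in Col-0, so that their counts were highest at 30 to 120 min. Among them were JAZ1 (7.80) and OPR3 (6.64) at 60 min in WS and LOX2 (4.46) at 120 min in Col-0. Of all genes tested 2.64, 6.36, 16.8, 23.2 and 14.5% were higher in WS at these times. In Col-0 the shares were 2.85, 5.08, 10.1, 20.3 and 17.0%. Both lists were chosen with earlier results of these data known, so their counts are no independent evidence.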

How the data were processed

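RNA was measured by RNA-Seq in 36 leaf libraries (2 ecotypes, 6 times, 3 libraries each), grouped by their labels. The authors deposited RPKM values with 2 decimals, made from reads trimmed in Trimmomatic 0.32 (quality by FastQC), mapped by STAR 2.3.0e against TAIR10 and assigned to genes by featureCounts. By the methods the libraries were made with a stranded kit, but the strand setting of the counting is not given. Whether reads of a gene and its antisense partner were counted apart is therefore not known. Read numbers were recovered from the RPKM steps with a divisor fitted for each library to give whole reads at low values. Of the low values checked (179 to 2436 per library), at least 99.8% lay within 0.1 reads of a whole number. The divisor was fitted on such values, so this share is partly fixed by the fit. Higher values were not checked. The recovered divisor of a library was not its number of reads in genes. It was 30.2 M against 36.5 M in replicate 3 of Col-0 at 60 min, and 53.6 M against 41.3 M in replicate 2 of WS at 240 min. The paper describes scaling by mapped reads, and the source of the difference was not tested.

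The 13817 genes that exceeded 7 RPKM in 1 or more of the 36 readings were tested on log2(RPKM + 1) with limma 3.58.1 (R 4.3.3), with 1 mean per group and a variance trend. P values are two-sided and adjusted by Benjamini-Hochberg within each of 29 comparisons, with a threshold of 0.05. This log scale understates changes of low genes. The fit was tested on simulated data. Alternatives were a pseudocount of 0.1 RPKM, a filter of 1 RPKM in 3 libraries, no filter, the median of ratios, TPM, separate fits per ecotype, a replicate block for the plant, no trend, voom on recovered reads, a cutoff of 7 RPKM and 2-fold, and leaving out each plant or library. The fit without 4 doubted libraries was added after seeing the data.

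Replicate numbers were read as plants, since the methods describe 3 plants per ecotype sampled over time. Deviations from group means of same-numbered libraries had r between -0.43 and 0.65 (median 0.13 over 90 pairs, above 0.1 in 49), against a median of -0.05 for different numbers. P values measure the spread between these leaves. The characteristics of all 6 libraries of 30 min carry 20, in a field headed hours, where the titles and methods have 30 min, and 30 min was used.

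The 8 genes and all gene lists were chosen with earlier results of these data known. Besides the 8, the text names up to 3 genes per list, by lowest adjusted p over the 10 comparisons with 0 min, the neighbouring calmodulin genes and, per gene, the 3 with the highest Pearson's r over the 12 group means. A comparison of protein sequences was planned and not run, and coding bases were compared in its place. Sequences and coordinates came from the RefSeq copy of TAIR10.1.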

Additional observations from a re-analysis of the deposited data

How the results depend on the processing

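No direction of a called difference turned in any setting, and of the 33 calls against 0 min 17 were kept in every setting other than leaving out samples, 16 were lost with voom and 11 were kept in all 9 fits that left out a plant or a library. Over those fits the number of the 8 genes higher than at 0 min ranged from 3 to 5, 2 to 5, 3 to 4 and 0 to 2 at 15, 30, 60 and 120 min in WS, and from 1 to 6, 1 to 3, 0 to 4, 0 to 2 and 0 to 1 at 15 to 240 min in Col-0, and the number lower at 120 min in Col-0 from 0 to 1. For the steps it ranged from 0 to 2 at 60 and at 120 min in WS and at 120 min in Col-0, and from 0 to 1 at 240 min in both ecotypes and at 30 min in Col-0. For WS against Col-0 it ranged from 1 to 2 at 0 min, 0 to 1 at 60 and 240 min and 0 to 2 at 120 min.

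With voom 3, 2, 3 and 1 were higher at 15 to 120 min in WS and 3, 1, 0 and 0 at 15, 60, 120 and 240 min in Col-0, with 1 step at 60 min in WS and 1 and 0 ecotype differences at 0 and 60 min. The cutoff of 7 RPKM and 2-fold, which has no test, gave 5 higher at 30 min in Col-0 and 4 and 1 at 120 and 240 min in WS, steps of 2, 7, 4 and 2 at 30 to 240 min in WS and of 2, 2, 4 and 1 in Col-0, and ecotype differences of 3, 2, 2, 3 and 2 at 15 to 240 min. Separate fits per ecotype gave 1 higher at 240 min in WS and 1 at 120 min in Col-0, 2 lower at 240 min in Col-0, and 1 step passed at 60 min in WS and 1 at 120 min in Col-0. The replicate block gave 2 lower at 240 min in Col-0, 1 higher at 240 min in WS and 1 step at 30 min in Col-0. The pseudocount of 0.1 RPKM gave 2 lower at 240 min in Col-0, 0 and 1 steps at 60 and 120 min in WS and 0 ecotype differences at 60 min. Without the 4 doubted libraries 2 were lower at 240 min in Col-0, 1 step passed at each of 30, 60 and 240 min in Col-0 and at 240 min in WS, and 1 ecotype difference at 120 min. TPM gave 1 higher at 240 min in WS and moved the median of all genes to 0.21 at 240 min in Col-0 and to 0.20 and 0.28 at 120 and 240 min in WS. TPM, no filter and the median of ratios gave 0 ecotype differences at 60 min, and either filter, the median of ratios and no trend gave 1 step at 60 min in WS. The cause of these changes was not tested. The replicate block changed no other count of the 8 genes by over 1.5 times.

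Only 3 leaves stood behind each group, and single leaves were far above the others for TCH4, CML37 and CML38 at 15 to 60 min, which widens their intervals. CML38 and CML39 had under 20 reads per library at 0 min, and CML37 at most 25, so the log2 differences of these genes depend on the pseudocount.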
